A study of Mus musculus with 24 samples.

Results

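The comparison of corticosterone-treated with control mice at the first hour of the light phase rested on 8 of the 24 two-color microarrays of the series, those labelled with the first time point, and on 16 of its 48 animals. All animals were Swiss-Webster male mice, 12 weeks of age, and each array held 1 hippocampus of each group, with no pooling of animals. Corticosterone-treated mice drank water with corticosterone (100 µg/ml) and 0.45% hydroxypropyl-β-cyclodextrin, a sugar ring that keeps the steroid in solution, over the 12 h dark phase; control mice drank water with the cyclodextrin alone. Both groups were sacrificed in alternating order in the first hour of the following light phase, at the end of the hormone intake, and 2 further sets of 8 arrays covered the fifth and the ninth hour. According to the methods, animals were kept singly, whereas the sample labels describe group housing. The methods also state that each control group was made up of siblings of treated animals from shared litters. Both groups thus shared the vehicle and, by the methods, the isolation.

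Corticosterone, the main glucocorticoid of mice, enters cells and binds a mineralocorticoid and a glucocorticoid receptor (*Nr3c2* and *Nr3c1*), which are held ready by heat shock proteins and then act as transcription factors. The hippocampus is rich in both. Ligand-bound glucocorticoid receptor raises genes that carry glucocorticoid response elements, among them clock genes, metallothioneins and brakes on growth signalling, and it is known for lowering the output of inflammatory genes.

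Values are normalized fluorescence intensities of one probe per gene, the brightest, and differences are log2 fold changes of corticosterone over control with standard errors, tested by limma over 56605 probes with 8 animals in each group. Of 23787 genes with a named probe, 15437 reached a mean intensity of 50 and were taken as measured; a probe was set only against itself. Beside the genes for which probes are given, not every measured probe passed for *Adora1*, *Apcdd1*, *Arntl*, *Bsn*, *Cklf*, *Cx3cr1*, *Dnajb9*, *Elavl4*, *Fgf1*, *Gabrb2*, *Junb*, *Lamb1*, *Lpin1*, *Man1a*, *Mdm2*, *Micall2*, *Msmo1*, *Npy2r*, *Nr1d2*, *Rpl13*, *Rpl3*, *Scn1a*, *Sel1l*, *Slc6a6* and *Vcan*. Corticosterone RNA carried the dye Cy5 and control RNA Cy3 on every array, so that in the first-hour comparison a difference between dyes and a difference between groups cannot be told apart. A constant dye difference cancels when the mean effect at the fifth and ninth hour is taken from the effect at the first hour. This second quantity is termed the hour difference. A treatment effect of the same size at each hour cancels in it too, so a gene that does not pass in it can still hold a lasting treatment effect.

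On the 8 arrays 60.8% to 67.2% of spots were well above background in Cy3 and 68.4% to 73.5% in Cy5, and no spot was saturated. Markers of the labelled tissue were detected, since all 12 dentate granule cell markers, all 11 CA1 pyramidal cell markers and all 27 astrocyte markers on the array were well above background in all 16 samples. The same held for all 17 meningeal fibroblast markers and all 4 red blood cell genes, so detection alone does not set the tissue apart. Whether RNA of such neighbouring tissue markers came from that tissue was not tested. For choroid plexus, 9 of 17 markers were above background in all samples. The summed intensity of the measured ones was 7070 to 8871 in control and 5857 to 8084 in corticosterone-treated animals. For meningeal fibroblast markers the sum was 9796 to 15079 in control and 8120 to 13072 in corticosterone-treated animals, and for red blood cell genes 40460 to 71153 in control and 51274 to 79907 in corticosterone-treated animals. Array 8 stood apart from the others, with the highest median Cy5 intensity (185, against 142 to 169.5), the highest share of spots above background in Cy5 (73.5%), a standard deviation of its log2 ratios of 0.338 (0.240 to 0.279 on the other arrays) and a mean correlation with the other first-hour arrays of 0.211 across probes (0.333 to 0.454 for the others). Results that rested on array 8 are given with and without it.

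Corticosterone-treated animals differed from controls in many genes by small amounts. Of the 15437 genes measured, 1902 were higher (12.3%) and 1862 lower (12.1%), 24.4% in either direction, and these shares are the background for every gene group; the median log2 fold change of all genes measured was -0.0030. Among genes called, the median size was 0.23 for those higher and 0.22 for those lower, that is, most changes lay between 10 and 25% (1208 genes higher and 1245 lower), while 30 genes rose and 4 fell by more than a log2 fold change of 1. Log2 fold changes reached from -1.37 for *Gbp3* to 3.47 for *Plin4*. The direction was the same on all 8 arrays for 1951 of the 3764 genes called and the same within each of the 3 slides for 97.3% of them; with the slide as a block, 2031 genes were higher and 1918 lower. Groups of animals that did not overlap at all were found for 480 genes (3.11%). In the hour difference, far fewer genes passed, 131 higher (0.849%) and 39 lower (0.253%), or 1.1% in either direction. Among the gene lists described here, members lower in the hour difference were found for Notch and Wnt genes, growth factors and endothelium (2 each) and for no other list. No fall in the lists of receptors, interferon and NF-κB genes, glutamate and GABA receptor subunits, oligodendrocytes or microglia passed in it. A constant dye difference and a treatment effect that lasts equally over the hours both cancel there and cannot be told apart. In all, 1804 of the higher and 1822 of the lower genes are not named in the text of the paper. From the deposited log2 ratios, limma called 2547 genes higher and 1901 lower. Without slide 2, 1043 genes were higher and 763 lower, without slide 3, 1247 and 1208, and without slide 1, 1320 and 1391. In the hour difference 63, 69 and 23 genes were higher and 9, 15 and 10 lower without slides 1, 2 and 3. The 39 lower genes of the hour difference fell to 23, 19, 22 and 21 without array 3, 4, 7 or 8 alone.

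Genes known as targets of the glucocorticoid receptor rose nearly throughout. Of this list, 29 of 34 measured members were higher (85.3%, against 12.3% of all genes measured) and 0 lower, with a median log2 fold change of 0.45. Its members were chosen with earlier results of these data known, and only 13 of the 29 are not named in the paper. The count is therefore a description and not an independent test of known targets. The 5 members not called were *Dusp1*, *Bcl6*, *Gadd45g*, *Klf9* and *Tat*. Without adjustment, 1 of the 34 was lower at a p under 0.05. The median of the same list was 0.22 at the fifth and -0.092 at the ninth hour, and at the first hour it was 0.48, 0.38 and 0.53 within slides 1, 2 and 3. Of the 29 members that rose, 18 were also higher in the hour difference. Without array 8 the count stayed at 29, and the median was 0.48. Without array 4 or array 6, 1 member was called lower.

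**Figure D1:**
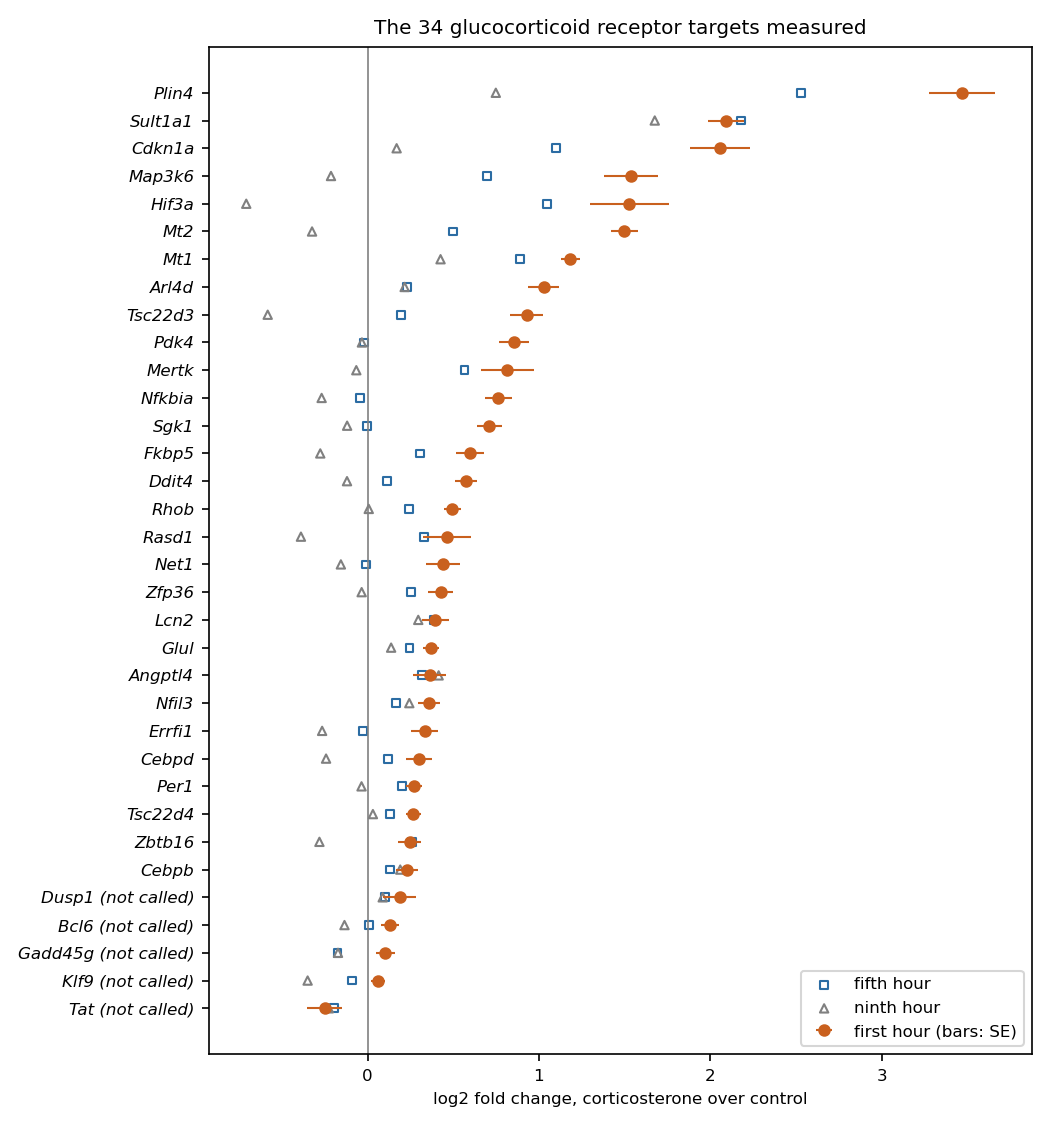
Log2 fold changes of corticosterone over control for the 34 glucocorticoid receptor targets measured, at the first hour (filled circles, bars are standard errors), the fifth hour (squares) and the ninth hour (triangles), each from 8 arrays. The first-hour values lie to the right of 0 for the 29 members called, from 0.23 for *Cebpb* to 3.47 for *Plin4*.

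Promoters of 4 genes that rose, *Map3k6*, *Mt1* and *Sgk1* of this list and *Txnip* of the mTOR and antioxidant lists, are printed because they hold the inverted repeat that the receptor dimer is known to bind. The motif searched was GNACA and TGTNC with 3 bases of any kind (NNN) between them, which reads the same on both strands, in the 300 bases from 250 before to 50 after each annotated start (RefSeq, build GRCm38.p6). It was found for 145 of 27025 genes with a promoter sequence (0.537%), 13 of 1510 genes higher at the first hour (0.861%), 3 of 1469 lower (0.204%), 4 genes higher in the hour difference (3.74% of those with a sequence) and 3 of 29 listed targets (10.3%). The 250 bases before the start are shown 5′ to 3′ with the match in capitals.
Map3k6: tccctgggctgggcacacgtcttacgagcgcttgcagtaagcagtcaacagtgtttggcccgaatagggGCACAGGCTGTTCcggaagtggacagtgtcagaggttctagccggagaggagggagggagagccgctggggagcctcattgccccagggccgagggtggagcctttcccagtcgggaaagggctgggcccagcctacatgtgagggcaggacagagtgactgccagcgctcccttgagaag
Mt1: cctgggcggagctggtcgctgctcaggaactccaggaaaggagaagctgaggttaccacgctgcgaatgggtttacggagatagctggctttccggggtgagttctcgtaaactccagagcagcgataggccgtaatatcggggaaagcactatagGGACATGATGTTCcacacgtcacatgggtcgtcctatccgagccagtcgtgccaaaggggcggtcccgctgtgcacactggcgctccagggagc
Sgk1: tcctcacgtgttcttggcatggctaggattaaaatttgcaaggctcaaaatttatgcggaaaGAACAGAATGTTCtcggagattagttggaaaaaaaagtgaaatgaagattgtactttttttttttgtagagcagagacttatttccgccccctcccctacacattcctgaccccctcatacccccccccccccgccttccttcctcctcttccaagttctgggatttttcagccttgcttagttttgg
Txnip: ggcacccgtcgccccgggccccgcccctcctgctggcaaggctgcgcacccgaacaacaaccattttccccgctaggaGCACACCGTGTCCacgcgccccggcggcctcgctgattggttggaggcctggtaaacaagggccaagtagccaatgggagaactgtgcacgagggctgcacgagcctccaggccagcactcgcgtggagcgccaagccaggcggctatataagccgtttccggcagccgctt
The match began 181 bases before the start of *Map3k6* (chr4:133240568-133240817, plus strand), 94 before *Mt1* (chr8:94178839-94179088, plus strand), 188 before one start of *Sgk1* (chr10:21993640-21993889, plus strand) and 172 before *Txnip* (chr3:96557707-96557956, plus strand). The *Sgk1* match had the full form, GAACA and TGTTC 3 bases apart, which 15 of the 27025 genes held (0.0555%). *Map3k6* and *Sgk1* are named here for this match, after their values were seen. A match describes these letters and not a bound site.

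*Mt1* and *Mt2* encode metallothioneins, small zinc-binding proteins, and *Mt1* ranged from 36139 to 53946 in control animals (median 45698) and from 94371 to 109768 in corticosterone-treated animals (median 102324). The lowest treated animal lay above the highest control animal, a log2 fold change of 1.18 ± 0.057 (adjusted p = 7.48e-22). *Mt2* rose by 1.50 ± 0.079, with groups apart likewise, and its effects were 1.50 at the first, 0.50 at the fifth and -0.32 at the ninth hour. *Map3k6*, a stress-activated kinase kinase, ranged from 82.6 to 164 in control animals (median 109) and from 175 to 567 in corticosterone-treated animals (median 349) (log2 fold change 1.54 ± 0.16, adjusted p = 7.91e-10). *Sgk1*, the serum- and glucocorticoid-regulated kinase, rose by 0.71 ± 0.073 (adjusted p = 1.25e-10; hour difference 0.77). *Txnip*, the inhibitor of thioredoxin that also curbs glucose uptake, ranged from 618 to 864 in control animals (median 696) and from 847 to 1243 in corticosterone-treated animals (median 1029.99). Its groups overlapped slightly; the log2 fold change was 0.53 ± 0.080 (adjusted p = 1.54e-06) and the hour difference 0.59 ± 0.10 (SE, adjusted p = 9.93e-05).

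*Tsc22d3* encodes GILZ, the leucine zipper protein through which glucocorticoids act on immune cells, and is not named in the paper. Its intensity ranged from 3147 to 4289 in control animals (median 3577) and from 4442 to 10914 in corticosterone-treated animals (median 6855). Every treated animal lay above every control, and the gene rose by 0.93 ± 0.10 (adjusted p = 4.91e-10), with 0.70, 0.80 and 1.21 within slides 1, 2 and 3. Its effect was 0.20 at the fifth and -0.58 at the ninth hour, and its hour difference was 1.12 ± 0.12 (SE, adjusted p = 1.18e-08). *Hif3a*, an inhibitory member of the hypoxia-inducible factors chosen after its values were seen, rose by 1.53 ± 0.23 (adjusted p = 1.93e-06). The sulfotransferase *Sult1a1* (2.09, adjusted p = 6.01e-21) and the lipid droplet coat protein *Plin4* (3.47, adjusted p = 2.97e-19) had the largest values of the list. Their time courses differed, since *Sult1a1* was 2.18 and 1.68 at the later hours and *Plin4* 2.53 and 0.75; *Plin4* passed in the hour difference (1.83, adjusted p = 1.69e-07) and *Sult1a1* did not (0.17, adjusted p = 0.939).

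The receptors themselves were lower. *Nr3c1*, the glucocorticoid receptor, ranged from 6925 to 7683 in control animals (median 7370.2) and from 4259 to 5879 in corticosterone-treated animals (median 5161). No treated animal reached the lowest control, and the gene fell by 0.54 ± 0.057 (adjusted p = 2.26e-10), with -0.32, -0.65 and -0.57 within slides 1, 2 and 3 and with -0.55 at the fifth and -0.18 at the ninth hour. *Nr3c2*, the mineralocorticoid receptor, fell by 0.25 ± 0.062 (adjusted p = 0.00187) with overlapping groups. Neither fall passed in the hour difference, which was -0.18 (adjusted p = 0.5001) for *Nr3c1* and -0.15 (adjusted p = 0.809) for *Nr3c2*. *Fkbp5*, the immunophilin that lowers the affinity of the receptor for hormone and is itself a receptor target, rose by 0.60 ± 0.082 (adjusted p = 1.94e-07), and the p23 cochaperone *Ptges3* fell by 0.20 ± 0.042 (adjusted p = 2.34e-04). In the whole list of receptors, cochaperones and hormone-metabolizing enzymes, 2 of 27 measured members were higher and 6 lower, with a median log2 fold change of -0.0016. Only 1 of these was higher without array 2, 3, 4, 6 or 7.

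Clock genes moved in both directions. In the list of the circadian clock, 5 of 23 measured members were higher and 6 lower, with a median log2 fold change of 0.077. *Per1*, a period gene with known glucocorticoid response elements, ranged from 2727 to 3039 in control animals (median 2884) and from 3244 to 3949 in corticosterone-treated animals (median 3434); the groups were apart and the log2 fold change was 0.27 ± 0.048 (adjusted p = 1.99e-05). *Nfil3*, a repressor of D-box genes (0.36, adjusted p = 2.43e-05), and *Arntl*, the Clock partner also called Bmal1 (0.28, adjusted p = 6.06e-04), were higher too. *Nr1d2*, the nuclear receptor REV-ERBβ, was lower (-0.21, adjusted p = 0.00134). None of these 4 passed in the hour difference.

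Among genes that the paper does not name, 15 with the largest rise in the same direction on all 8 arrays were taken. *Xdh*, xanthine dehydrogenase of purine breakdown, led them and ranged from 51.3 to 131 in control animals (median 72.9) and from 98.0 to 481 in corticosterone-treated animals (median 207). The groups overlapped in their tails; the log2 fold change was 1.54 ± 0.29 (adjusted p = 9.98e-05). *C2*, complement component 2, ranged from 145 to 313 in control animals (median 231) and from 336 to 777 in corticosterone-treated animals (median 575), with no overlap (log2 fold change 1.30 ± 0.20, adjusted p = 7.04e-07). *Mfsd2a*, the endothelial carrier that brings docosahexaenoic acid lipids through the blood-brain barrier, ranged from 1296 to 1678 in control animals (median 1505) and from 2955 to 4255 in corticosterone-treated animals (median 3607). Treated animals lay far above all controls, by 1.23 ± 0.073 on the log2 scale (adjusted p = 1.79e-18; 1.11, 1.28 and 1.26 within slides 1, 2 and 3), and the hour difference was 0.62 ± 0.090 (SE, adjusted p = 6.54e-06). The adhesion molecule *Kirrel2* ranged from 144 to 261 in control animals (median 216) and from 393 to 519.8 in corticosterone-treated animals (median 435) (log2 fold change 1.12 ± 0.10, adjusted p = 2.05e-12), and here too the groups were apart.

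The others of these 15 rose by less. *Cmtm3*, a MARVEL domain membrane protein, ranged from 446 to 569 in control animals (median 517) and from 711 to 1265 in corticosterone-treated animals (median 1035), groups apart, with an effect of 0.98 ± 0.083 and an hour difference of 0.70 ± 0.10 (SE, adjusted p = 1.03e-05). *Emilin2*, an elastin-associated matrix glycoprotein (0.90, adjusted p = 4.47e-08), and the phospholipid flippase *Atp10a* (0.88, adjusted p = 2.85e-06) followed. *Slc2a4*, the insulin-responsive glucose transporter GLUT4, ranged from 85.3 to 123 in control animals (median 111) and from 132 to 431 in corticosterone-treated animals (median 180.2) and rose by 0.84 ± 0.13 (adjusted p = 1.33e-05), the highest value being that of array 8. The vasodilator peptide adrenomedullin, *Adm* (0.80, adjusted p = 3.42e-07), and the neuronal membrane protein *Slitrk6* (0.83, adjusted p = 7.19e-04), which 7 of 8 control samples showed above background, overlapped between groups. Enzymes of lipid and amino acid use closed the set: the lipoxygenase *Alox12b* (0.78, adjusted p = 2.53e-07), the acyl-CoA thioesterase *Acot11* (0.71, adjusted p = 9.29e-14) and proline dehydrogenase *Prodh* (0.70, adjusted p = 2.34e-13), along with the chemokine-like factor *Cklf* (0.74, adjusted p = 3.20e-09). *Acot11* ranged from 2888 to 3564 in control animals (median 3121) and from 4359 to 6251 in corticosterone-treated animals (median 5051), and *Prodh* from 1359.9 to 1724 in control animals (median 1538) and from 2185 to 2666 in corticosterone-treated animals (median 2504); in both, no animal of one group reached the other. *Prodh* and *Acot11* were still higher at the ninth hour (0.32 and 0.46), whereas *Atp10a* was -0.45 there. None of the 12 of these genes with a promoter sequence held this repeat in that window.

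**Figure D2:**
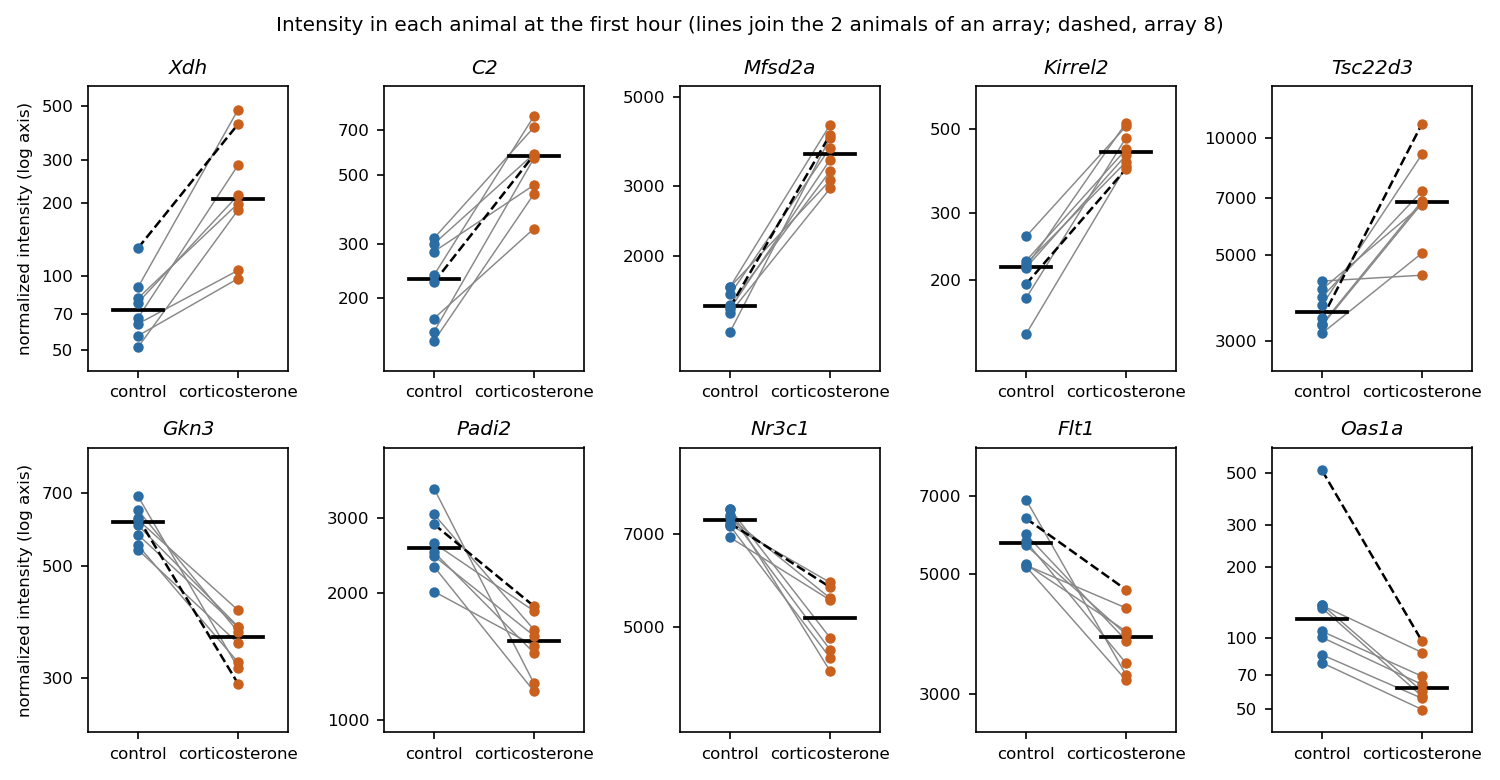
Normalized intensity (log axis) of 10 genes in each of the 16 animals of the first hour, blue for control and orange for corticosterone; thin lines join the 2 animals of an array, the dashed line is array 8 and black bars are medians. Treated animals of *Mfsd2a* (2955 to 4255) lie above all controls (1296 to 1678), those of *Nr3c1*, *Gkn3* and *Padi2* lie below all controls, and the control of array 8 is the highest point of *Oas1a* (512).

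The 15 largest falls among genes that the paper does not name were taken by the same rule. *Oas1a*, an interferon-induced sensor of double-stranded RNA, is described with the interferon genes. *Padi2*, the deiminase that converts arginine of myelin basic protein to citrulline, ranged from 2011 to 3523 in control animals (median 2554) and from 1168 to 1856 in corticosterone-treated animals (median 1539.6). The groups were apart, and the gene fell by 0.80 ± 0.12 (adjusted p = 1.57e-06). *Gkn3*, a secreted gastrokine, ranged from 539.7 to 689 in control animals (median 611) and from 292 to 409 in corticosterone-treated animals (median 361), again without overlap, and fell by 0.79 ± 0.086 (adjusted p = 1.29e-09; -0.64, -0.83 and -0.84 within slides 1, 2 and 3). *Flt1*, the VEGF receptor 1 of endothelium, ranged from 5169 to 6881 in control animals (median 5709) and from 3181 to 4683 in corticosterone-treated animals (median 3820.1), log2 fold change -0.61 ± 0.074 (adjusted p = 1.47e-08) with no shared values, though only 1 of its 3 measured probes passed.

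The others of these 15 had log2 fold changes from -0.75 to -0.61. The matrix protein multimerin 2, *Mmrn2* (-0.72, adjusted p = 3.42e-07), and the surface receptor *Cd93* (-0.65, adjusted p = 4.29e-06) were lower in every treated animal than in every control. The vascular peptide apelin, *Apln*, ranged from 615 to 929 in control animals (median 743) and from 402 to 582 in corticosterone-treated animals (median 488) and fell by 0.62 ± 0.084 (adjusted p = 1.73e-07). The endothelial protocadherin *Pcdh12* (-0.69, adjusted p = 1.03e-04) overlapped between groups. The phagocyte NADPH oxidase subunit *Ncf4* (-0.67, adjusted p = 2.33e-06) was lower, as were the oxidase maturation factor *Duoxa1* (-0.71, adjusted p = 6.58e-06), which 6 of 8 treated samples showed above background, the lysosomal sulfatase *Arsg* (-0.68, adjusted p = 2.96e-06), the serine protease *Tmprss5* (-0.65, adjusted p = 4.19e-04), *Mamdc2* (-0.75, adjusted p = 4.66e-09) and *Serpinb1c* (-0.61, adjusted p = 7.13e-07). The effect on *Cd93*, *Mmrn2*, *Pcdh12* and *Tmprss5* was between -0.12 and 0.21 at the ninth hour, and none of the 15 passed in the hour difference with all arrays; *Cd93* did without array 2 or array 5 (-0.58 to -0.53) and *Pcdh12* without array 5 (-0.69).

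Fuel genes rose in a few steps of the pathway rather than throughout. In the list of glucose uptake, glycolysis and glycogen, 12 of 38 measured members were higher and 4 lower, with a median log2 fold change of 0.079. *Slc2a1*, the glucose transporter of the blood-brain barrier, ranged from 5978 to 6454 in control animals (median 6176) and from 7926 to 19645 in corticosterone-treated animals (median 11650.1). All treated animals exceeded all controls, by 0.92 ± 0.094 (adjusted p = 2.16e-10), and the hour difference was 0.80 ± 0.12 (SE, adjusted p = 9.98e-06). The muscle form of glycogen phosphorylase, *Pygm*, rose by 0.65 ± 0.077 and was higher at each hour (0.80 and 0.82 at the fifth and ninth). *Slc16a1*, the lactate and ketone carrier MCT1, ranged from 1916 to 2642 in control animals (median 2291) and from 1315 to 1816 in corticosterone-treated animals (median 1568). Its groups were apart, and it fell by 0.54 ± 0.062 (adjusted p = 3.40e-09).

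In the list of fatty acid oxidation, ketone and PPAR target genes, 10 of 36 measured members were higher and 3 lower, with a median log2 fold change of 0.033. Of the kinases that switch off pyruvate dehydrogenase, *Pdk2* and *Pdk4* are on the list and were higher. *Pdk4* ranged from 459 to 589.9 in control animals (median 498) and from 661 to 1523 in corticosterone-treated animals (median 944) (groups apart, by 0.85 ± 0.087, hour difference 0.88), and *Pdk2* rose less (0.32, adjusted p = 8.02e-06). The mitochondrial carrier *Ucp2* ranged from 128 to 187 in control animals (median 175) and from 192 to 318 in corticosterone-treated animals (median 250.2), groups apart, by 0.56 ± 0.090 (adjusted p = 8.44e-06). Lipid droplet and lipase genes gave 7 higher and 2 lower of 22 measured (median 0.079), with adipose triglyceride lipase *Pnpla2* (0.76, adjusted p = 4.06e-11), the triglyceride-forming enzyme *Dgat2* (0.27, adjusted p = 1.52e-04) and the phosphatidate phosphatase *Lpin1* (0.19, adjusted p = 0.00243) higher. Fatty acid synthesis and elongation gave 3 higher and 3 lower of 25 measured (median -0.0018). There the glucose-responsive factor *Mlxipl* (0.32, adjusted p = 3.20e-04), its target *Thrsp* (0.27, adjusted p = 1.46e-04) and the elongase *Elovl5* (0.19, adjusted p = 0.00670) were higher and the elongase *Elovl7* lower (-0.39, adjusted p = 0.00389). Leaving out array 2 took the lower genes of fatty acid synthesis from 3 to 1, and the 2 lower lipid droplet genes were both lost without array 1 or array 4.

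Most sterol and ribosomal genes were not called, and those called were more often lower, which turned for ribosomal genes without normalization between arrays. Cholesterol synthesis and SREBP targets gave 2 higher and 7 lower of 26 measured (median -0.070), and *Idi1* (-0.35), *Hmgcs1* (-0.25), *Msmo1* (-0.23) and *Sqle* (-0.22), 4 enzymes of the sterol route, were lower in every treated animal than in every control. Their effects were -0.41, -0.23, -0.29 and -0.20 at the fifth and -0.41, -0.24, -0.31 and -0.21 at the ninth hour, and none passed in the hour difference. Of cytosolic ribosomal proteins there were 5 higher and 16 lower of 73 measured (median -0.035); *Rps21* (-0.26, adjusted p = 3.69e-08), *Rpl13* (-0.24, adjusted p = 1.09e-08), *Rpl3* (-0.21, adjusted p = 4.37e-07) and *Rplp1* (-0.19, adjusted p = 1.00e-06) had the smallest p, with effects of -0.29, -0.25, -0.19 and -0.23 at the fifth and -0.26, -0.23, -0.18 and -0.19 at the ninth hour. The mitochondrial respiratory chain gave 5 higher and 4 lower of 50 measured (median 0.0074), with *Uqcrc1* (0.20) and *Ndufs7* (0.12) higher and *Cox4i1* (-0.19) and *Sdhd* (-0.15) lower. The call of *Cox4i1* was lost with Aquantile (-0.030, adjusted p = 0.630), without normalization between arrays (adjusted p = 0.704) and in the deposited log2 ratios (-0.020, adjusted p = 0.693). That of *Ndufs7* was lost with the array as replicate block (adjusted p = 0.0555), without normalization between arrays (0.080, adjusted p = 0.156), without slide 3 and in the deposited log2 ratios (adjusted p = 0.0578). *Rplp1* lost its call without normalization between arrays (-0.098, adjusted p = 0.0833) and in the deposited log2 ratios (adjusted p = 0.0522). The ribosomal counts moved with the scaling between arrays, to 15 higher and 16 lower with Aquantile, 14 and 7 without normalization between arrays and 10 and 15 from processed signals, and the median stayed below 0 in each (-0.019, -0.019 and -0.029). Without array 1, 3 ribosomal genes were higher, and the 4 lower genes of the respiratory chain became 2 without array 2, 3, 4 or 7.

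**Figure D3:**
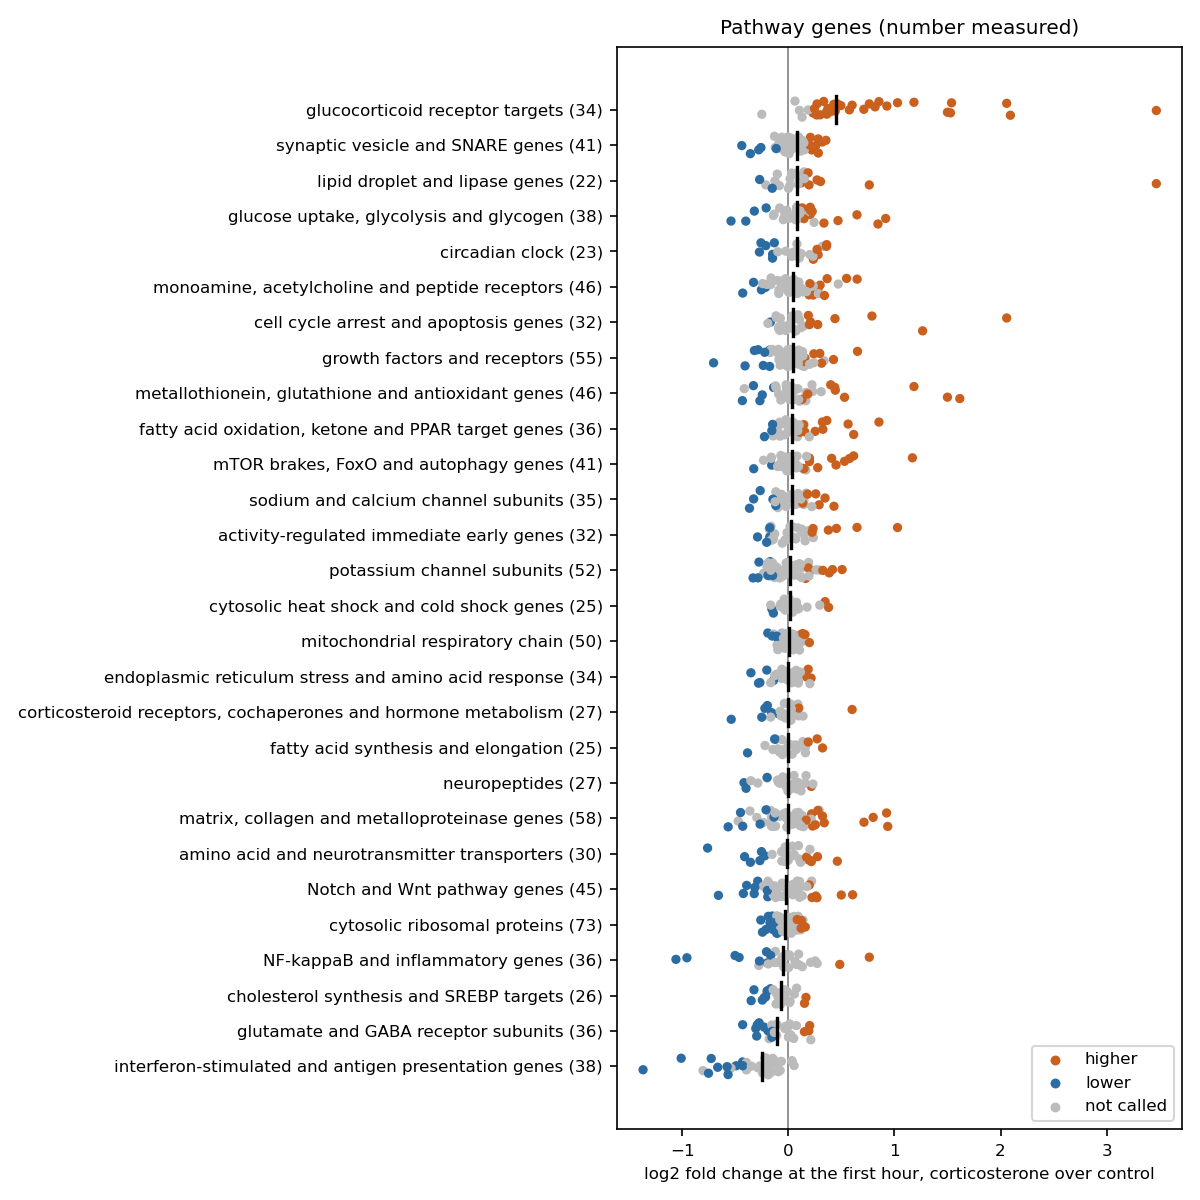
Log2 fold changes at the first hour for the measured members of each pathway list (number of genes in brackets), with the median as a black bar; orange points were higher, blue lower and grey not called. Glucocorticoid receptor targets have the highest median (0.45) and interferon-stimulated genes the lowest (-0.25).

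Growth and survival genes held some of the largest single rises. In the list of mTOR brakes, FoxO and autophagy genes, 10 of 41 measured members were higher and 2 lower, with a median log2 fold change of 0.032. *Ddit4*, the REDD1 protein that blocks mTORC1, ranged from 8509 to 11420.4 in control animals (median 10506) and from 11605 to 21764 in corticosterone-treated animals (median 14841), without overlap (by 0.57 ± 0.065, hour difference 0.58 ± 0.080, adjusted p = 2.53e-06). The Krüppel-like factor *Klf15*, a known partner of the glucocorticoid receptor, rose by 0.62 ± 0.080 and the insulin receptor substrate *Irs2* by 0.28 ± 0.045. Cell cycle arrest and apoptosis genes gave 8 higher and 1 lower of 32 measured (median 0.044), 6 of them also higher in the hour difference. *Cdkn1a*, the p21 inhibitor of cell division, ranged from 119 to 167 in control animals (median 151) and from 249.9 to 1162 in corticosterone-treated animals (median 680.3); *Pmaip1*, the BH3-only protein Noxa, ranged from 316 to 463 in control animals (median 396) and from 546 to 2037 in corticosterone-treated animals (median 916). In both genes the groups were apart (log2 fold changes 2.06 ± 0.18 and 1.27 ± 0.11). The anti-apoptotic *Bcl2l1* rose as well, by 0.44 ± 0.039 (adjusted p = 7.04e-13, the same call in all 5 of its probes), and so did *Mdm2*, the ubiquitin ligase of p53 (0.20, adjusted p = 3.07e-05). Leaving out array 8 raised the lower genes of the mTOR list from 2 to 5.

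Among stress proteins, the metallothioneins and a small Maf factor, the latter near background in control animals, had the largest rises. Metallothionein, glutathione and antioxidant genes gave 9 higher and 5 lower of 46 measured (median 0.036); beside the metallothioneins and *Txnip*, the small Maf factor *Maff* ranged from 32.2 to 59.2 in control animals (median 51.4) and from 93.1 to 252 in corticosterone-treated animals (median 149) (by 1.62 ± 0.15, adjusted p = 8.52e-11), with 5 of 8 control samples above background. Endoplasmic reticulum stress and amino acid response genes gave 4 higher and 6 lower of 34 measured (median -0.0011), with the transcription factor *Atf4* (0.21, adjusted p = 5.89e-04), of whose 2 measured probes the dimmer was called lower (-0.18, adjusted p = 0.0141), the cochaperone *Dnajb9* (0.20, adjusted p = 3.14e-04) and the degradation factor *Sel1l* (0.19, adjusted p = 5.13e-04) higher, and the serine-synthesis enzyme *Phgdh* lower (-0.35, adjusted p = 1.13e-07). Cytosolic heat shock and cold shock genes gave 2 higher and 2 lower of 25 measured (median 0.015). *Hspa1a* (0.35, adjusted p = 0.00102) and *Hspa1b* (0.38, adjusted p = 0.0200) are near-identical copies whose probes may share RNA, and the call of *Hspa1b* was lost without any one of arrays 2, 7 and 8 (0.29 to 0.35, highest adjusted p = 0.0919). *Ahsa1* (-0.16, adjusted p = 0.0195) and *Cryab* (-0.14, adjusted p = 0.0457) were lower, with calls lost without any one of arrays 4, 6 and 7 (-0.13, highest adjusted p = 0.0866) and without any one of arrays 1, 2, 3, 4, 5, 6 and 7 (-0.15 to -0.13, highest adjusted p = 0.0935). *Ahsa1* was also not called with the array as replicate block (adjusted p = 0.0937), with Aquantile (adjusted p = 0.0735), without normalization between arrays (adjusted p = 0.135), in a fit of the 8 first-hour arrays alone (adjusted p = 0.0510) or in the deposited log2 ratios (adjusted p = 0.120). *Cryab* was not called with offset 0 for p (adjusted p = 0.0654) or with the slide as a block (adjusted p = 0.0548). From processed signals *Atf4* was not called (adjusted p = 0.0742). With Aquantile the heat shock list had 5 higher and 1 lower. Among the other lists of stress proteins, 3 antioxidant genes in place of 5 were lower without array 4 or 7, and 3 endoplasmic reticulum genes in place of 6 without array 3 or 6.

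Interferon-stimulated and antigen presentation genes had the lowest median of all lists and no member called higher (without adjustment, 0 of the 38 at a p under 0.05): 0 higher and 10 lower of 38 measured (median -0.25), with -0.20, -0.20 and -0.34 within slides 1, 2 and 3. This result rested on array 8, where the median of the list was -1.03, against -0.39 to -0.04 on the other 7 arrays. The control animal of array 8 was high in members such as *Irf7* (1098, against 125 to 246 in the other controls). Its treated animal (183) lay within the other treated animals (94.0 to 200). The summed intensity of the list was 34066 to 68190 in control and 31582 to 40365 in corticosterone-treated animals. Without array 8 the median was -0.15 and 3 members were lower, *Gbp3*, *Ifit3b* and *Trim30a*. The share of members lower was 26.3% with all arrays, against 12.1% of all genes measured, and 7.89% without array 8, against 13.3% of all genes in the same fit. No member passed in the hour difference. Fewer members were also lower without array 3 (5, or 13.2%, against 10.1% of all genes) or array 7 (6, or 15.8%, against 9.3%). Without slides 1, 2 and 3 there were 5, 2 and 1 (13.2%, 5.26% and 2.63%, against 9.01%, 4.94% and 7.83% of all genes).

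Promoters of 2 of these genes are shown because they hold the interferon-stimulated response element, searched as GAAA followed by GAAA after 2 bases of any kind or, on the other strand, TTTC followed by TTTC after 2 bases; the pair of matches in each promoter overlap. It was found for 1079 of 27025 genes (3.99%), 58 of 1469 genes lower at the first hour (3.95%) and 19 of 33 listed interferon genes (57.6%). The 250 bases before the start are given 5′ to 3′ with the matches in capitals.
Gbp3: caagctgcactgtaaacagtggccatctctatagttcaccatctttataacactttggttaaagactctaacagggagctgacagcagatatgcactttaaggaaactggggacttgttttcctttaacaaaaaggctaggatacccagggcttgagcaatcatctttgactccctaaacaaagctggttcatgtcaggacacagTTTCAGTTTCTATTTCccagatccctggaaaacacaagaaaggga
Oas1a: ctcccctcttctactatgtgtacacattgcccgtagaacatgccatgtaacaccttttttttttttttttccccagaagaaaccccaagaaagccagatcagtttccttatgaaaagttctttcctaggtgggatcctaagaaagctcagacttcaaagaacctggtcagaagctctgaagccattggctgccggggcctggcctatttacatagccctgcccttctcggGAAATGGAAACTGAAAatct
They lie at chr3:142559794-142560043, plus strand, for *Gbp3* and at chr5:120907526-120907775, minus strand, for *Oas1a* (GRCm38.p6).

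*Gbp3*, an interferon-induced guanylate-binding protein, ranged from 184 to 748 in control animals (median 218) and from 71.7 to 127 in corticosterone-treated animals (median 101). Every treated animal lay below every control, and the control of array 8 stood far above the other controls, which ended at 319. The gene fell by 1.37 ± 0.26 (adjusted p = 3.44e-04). Without array 8 it fell by 1.19 (adjusted p = 0.00218). *Oas1a* ranged from 78.5 to 512 in control animals (median 120.3) and from 49.8 to 96.8 in corticosterone-treated animals (median 61.5), the top control being again that of array 8, with the next at 138. It fell by 1.01 ± 0.29 (adjusted p = 0.0211), and the call was lost without array 8 (-0.81, adjusted p = 0.0798). *Gbp2* ranged from 132 to 379 in control animals (median 163) and from 79.5 to 149.9 in corticosterone-treated animals (median 111) and its call (-0.73, adjusted p = 0.0118) was lost without array 8 (-0.55, adjusted p = 0.0680). *Ifit3b*, which may share RNA with its copy *Ifit3*, ranged from 106.9 to 317 in control animals (median 136) and from 66.1 to 122 in corticosterone-treated animals (median 91.1) (log2 fold change -0.67 ± 0.20, adjusted p = 0.0143; without array 8 it fell by 0.56, adjusted p = 0.0487). The restriction factor *Trim30a* fell by 0.57 ± 0.14 (adjusted p = 0.00234), and without array 8 it fell by 0.46 (adjusted p = 0.0116).

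**Figure D4:**
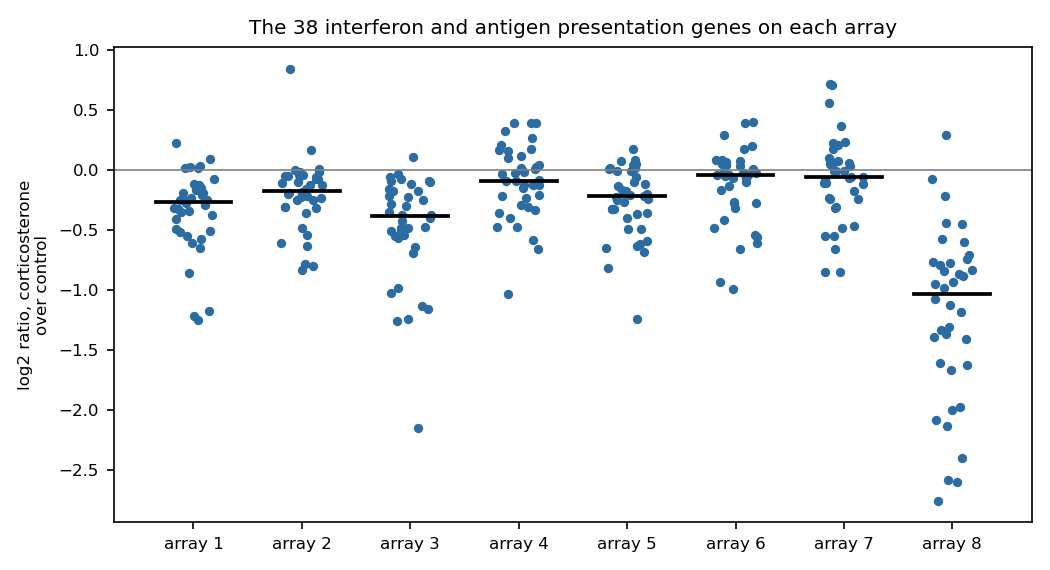
Log2 ratio of corticosterone over control for the 38 measured interferon-stimulated and antigen presentation genes on each of the 8 first-hour arrays, with the median as a black bar. The medians run from -0.39 to -0.04 on arrays 1 to 7 and lie at -1.03 on array 8.

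Among NF-κB and inflammatory genes, 2 of 36 measured members were higher and 8 lower, with a median log2 fold change of -0.054. *Nfkbia*, the inhibitor that holds NF-κB in the cytoplasm and a known receptor target, ranged from 1517 to 2015 in control animals (median 1839) and from 2098 to 4299 in corticosterone-treated animals (median 3240.2). The groups were apart, by 0.76 ± 0.078 (adjusted p = 1.96e-10), and the hour difference was 0.92 ± 0.10 (SE, adjusted p = 5.11e-09). The leukocyte adhesion molecule *Vcam1* ranged from 1698 to 2223 in control animals (median 1803) and from 1150.3 to 1427 in corticosterone-treated animals (median 1301) and fell by 0.50 ± 0.058 (adjusted p = 3.19e-09), with effects of -0.53 and -0.42 at the later hours. *Rela*, the p65 subunit, was lower (-0.27, adjusted p = 1.63e-05), as was the chemokine *Ccl12* (-0.96, adjusted p = 8.27e-04), with 5 of 8 treated samples above background. Microglia markers gave 0 higher and 8 lower of 28 measured (median -0.057), and no fall of either list passed in the hour difference. In these whole-tissue samples fewer cells of a type and less RNA per cell cannot be told apart, here and for every other cell type. *Ly86* (-0.46, adjusted p = 6.53e-06), the purinergic receptor *P2ry13* (-0.44, adjusted p = 7.66e-05), *Aif1*, also called Iba1 (-0.44, adjusted p = 0.00128), and the fractalkine receptor *Cx3cr1* (-0.20, adjusted p = 0.00272) were the 4 with the smallest p. *P2ry13* ranged from 383 to 546 in control animals (median 465) and from 227 to 419.95 in corticosterone-treated animals (median 347), so that the groups overlapped, with 8 of 8 arrays lower. The sum over the measured microglia markers was 78099 to 101662 in control and 84411 to 91137 in corticosterone-treated animals. Without array 8, 8 markers were lower. Without adjustment, 3 of the 28 were higher at a p under 0.05. The call of *Cx3cr1* was lost from processed signals (adjusted p = 0.140). Without array 8, 1 marker was called higher, and without slide 2, 3 were lower.

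Among oligodendrocyte markers, lower values outnumbered higher ones. Of these, 3 of 28 measured members were higher and 12 lower, with a median log2 fold change of -0.19; without array 8 12 were lower, and by slide the median was -0.085, -0.19 and -0.19 within slides 1, 2 and 3. At the later hours the median was -0.24 and -0.16, and no member passed in the hour difference. *Opalin*, a membrane protein of myelin, ranged from 178 to 379.7 in control animals (median 224) and from 79.1 to 135 in corticosterone-treated animals (median 113). The groups were far apart, and the signal fell by 1.17 ± 0.15 (adjusted p = 1.39e-07). This value is that of a single probe and need not hold for every transcript variant. The paper reports the lasting change of this gene only for a probe of a variant with a retained intron. A probe expected to bind the main (canonical) variant did not show it. Which variant the probe used here binds was not tested. The receptor *Gpr37* (-0.43, adjusted p = 3.19e-06) was lower without overlap. *Mobp*, a structural myelin protein, went the other way and ranged from 2195 to 3114 in control animals (median 2434) and from 3267 to 4913 in corticosterone-treated animals (median 3709), a rise by 0.59 ± 0.083 (adjusted p = 3.94e-07) with groups apart. Oligodendrocyte precursor markers gave 3 higher and 0 lower of 12 measured (median 0.10), namely the sialidase *Neu4* (0.42, adjusted p = 4.02e-04), the receptor-associated subunit *Cacng4* (0.35, adjusted p = 0.00506) and the proteoglycan *Vcan* (0.32, adjusted p = 0.00217).

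**Figure D5:**
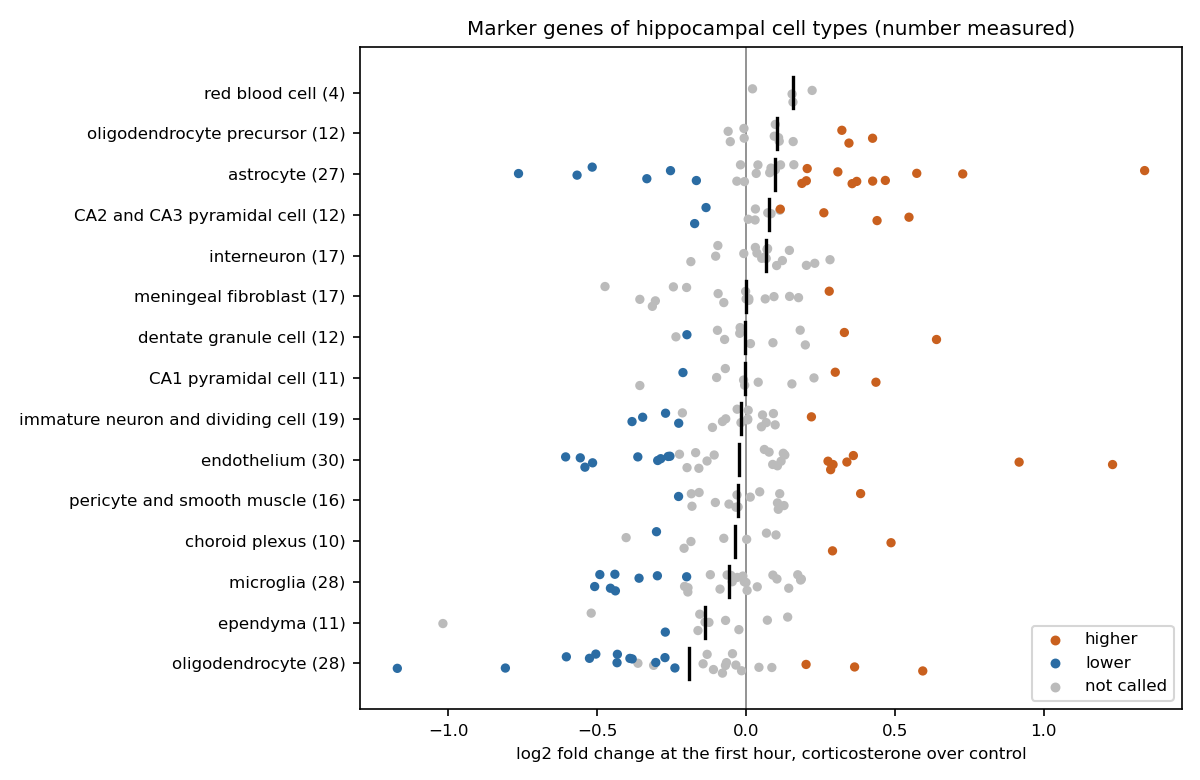
Log2 fold changes at the first hour for measured marker genes of each cell type (number of genes in brackets), with the median as a black bar; orange points were higher, blue lower and grey not called. The oligodendrocyte median lies at -0.19 and the astrocyte median at 0.10, with single genes on both sides of 0 in each.

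Astrocyte markers split, in that 11 of 27 measured members were higher and 6 lower, with a median log2 fold change of 0.10. *Aldh1l1*, a folate enzyme and pan-astrocyte marker, ranged from 4590.3 to 5159 in control animals (median 4905) and from 6527 to 8458 in corticosterone-treated animals (median 7261); groups were apart and the rise was 0.57 ± 0.047 (adjusted p = 9.21e-14), 0.51 and 0.41 at the later hours. *Gjb6*, connexin 30 of astrocyte gap junctions, ranged from 5132 to 6519 in control animals (median 5696) and from 7145 to 12822 in corticosterone-treated animals (median 9657) (by 0.73 ± 0.071, hour difference 0.55 ± 0.087, adjusted p = 5.68e-05). *Glul*, glutamine synthetase and a known receptor target, ranged from 22074 to 28145 in control animals (median 23919.7) and from 28667 to 35023 in corticosterone-treated animals (median 30978), with no overlap (by 0.37 ± 0.047, adjusted p = 1.62e-08). Against these, the water channel *Aqp4* ranged from 1541 to 2483 in control animals (median 2115) and from 951 to 1978 in corticosterone-treated animals (median 1135) and fell by 0.76 ± 0.091 (adjusted p = 1.20e-08), and only 2 of its 3 measured probes passed. *Fgfr3*, a fibroblast growth factor receptor of astrocytes, rose by 0.43 ± 0.055 (hour difference 0.30; without array 4 or array 8 that call was lost, at 0.25 to 0.27, highest adjusted p = 0.0658).

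Endothelial markers split as well: 8 higher and 9 lower of 30 measured (median -0.023), 4 of them higher and 2 lower in the hour difference. Beside *Mfsd2a*, *Slc2a1*, *Flt1* and *Slc16a1*, the adrenomedullin receptor partner *Ramp2* ranged from 3139 to 3719.5 in control animals (median 3380.3) and from 3932 to 5067 in corticosterone-treated animals (median 4439.5), groups apart, and rose by 0.36 ± 0.046 with an hour difference of 0.38 ± 0.056 (SE, adjusted p = 6.37e-06). *Cldn5*, the main claudin of the blood-brain barrier, ranged from 2645 to 3761 in control animals (median 3133) and from 1916 to 2939.8 in corticosterone-treated animals (median 2333) and fell by 0.36 ± 0.067 (adjusted p = 5.44e-05); at the ninth hour its effect was 0.24, giving an hour difference of -0.43 ± 0.083 (SE, adjusted p = 0.00146). Pericyte and smooth muscle markers gave 1 higher and 1 lower of 16 measured (median -0.029): *Mcam* was higher (0.38, adjusted p = 2.57e-04) and *Rgs5* lower (-0.23, adjusted p = 0.0291), the latter a call lost without any one of arrays 1, 4, 5 and 7 (-0.22 to -0.18, highest adjusted p = 0.111). The choroid plexus list gave 2 higher and 1 lower of 10 measured (median -0.037), namely *Prlr* (0.49, adjusted p = 0.0300), *Trpv4* (0.29, adjusted p = 0.0107) and *Enpp2* (-0.30, adjusted p = 0.0429); calls were lost without any one of arrays 1, 3, 4 and 8 (0.38 to 0.48, highest adjusted p = 0.113) for *Prlr* and without any one of arrays 1, 2, 3, 4, 5, 6 and 7 (-0.32 to -0.27, highest adjusted p = 0.110) or with offset 0 for p (adjusted p = 0.0559) for *Enpp2*. Meningeal fibroblast markers gave 1 higher and 0 lower of 17 measured (median -0.0016), the 1 being *Cyp1b1* (0.28, adjusted p = 0.00501), while *Dcn* (-0.36, adjusted p = 0.145) and *Islr* (0.064, adjusted p = 0.671) were not called. Ependymal markers gave 0 higher and 1 lower of 11 measured (median -0.14), the lipid transfer protein *Pltp* (-0.27, adjusted p = 0.0140), with *1110017D15Rik* at -0.024 (adjusted p = 0.794). The lowest values there, of *Tmem212* (-1.02, adjusted p = 0.495, on 7 arrays) and *Ccdc153* (-0.52, adjusted p = 0.104), were not called, and without adjustment 3 of the 11 were lower at a p under 0.05. No red blood cell gene was called, with 0 at an unadjusted p under 0.05, *Hba-a1* (0.16, adjusted p = 0.415) and its near-identical copy *Hba-a2* (0.15, adjusted p = 0.422) included.

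Receptor subunits of fast transmission leaned to lower values: glutamate and GABA receptor subunits gave 3 higher and 12 lower of 36 measured (median -0.11), and 10 lower without array 8. The GABA-A receptor subunits *Gabra2* and *Gabrb2* fell by 0.29 ± 0.057 (adjusted p = 9.83e-05) and 0.19 ± 0.039 (adjusted p = 1.13e-04). The kainate receptor subunit *Grik1* fell by 0.43 ± 0.10 (adjusted p = 6.66e-04), with the same call in all 3 of its probes. None passed in the hour difference. The 12 lower subunits became 5 without array 6, 6 without array 7, 5 without slide 2 and 6 without slide 3.

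Ion channel lists had shares called near those of all genes. Potassium channel subunits gave 7 higher and 7 lower of 52 measured (median 0.018): the sodium-activated *Kcnt1* (0.42, adjusted p = 4.35e-06) and the stretch-sensitive leak channel *Kcnk2* (0.51, adjusted p = 6.66e-04) were higher, and the glial inward rectifier *Kcnj10* (-0.33, adjusted p = 4.47e-06) and the A-type *Kcna4* (-0.28, adjusted p = 6.39e-04) lower. Within slides 1, 2 and 3, *Kcna4* was 0.079, -0.29 and -0.50. Sodium and calcium channel subunits gave 6 higher and 5 lower of 35 measured (median 0.029). *Scn3b*, an auxiliary sodium channel subunit, ranged from 17040.1 to 22723 in control animals (median 18369.5) and from 23462 to 28257 in corticosterone-treated animals (median 25194); the groups were apart, by 0.43 ± 0.054 (adjusted p = 1.82e-08). *Cacng7* was higher (0.26, adjusted p = 1.28e-04) and the AMPA receptor partner *Cacng2* (-0.33, adjusted p = 0.00133) and the sodium channel *Scn1a* (-0.27, adjusted p = 1.42e-04) lower. Without array 8, the members called higher rose to 11 in each of these lists of channels, and 3 sodium and calcium channel genes in place of 5 were lower without array 3, 4 or 6.

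At the presynapse, synaptic vesicle and SNARE genes gave 9 higher and 5 lower of 41 measured (median 0.084); the active zone scaffold *Bsn* (0.35, adjusted p = 2.51e-05), *Sv2a* (0.32, adjusted p = 6.56e-05) and the synapsin *Syn3* (0.28, adjusted p = 2.78e-05) were higher, and *Syt4* ranged from 2906 to 3350.4 in control animals (median 3043) and from 2185 to 2647 in corticosterone-treated animals (median 2361) and fell by 0.36 ± 0.056 (adjusted p = 2.46e-06). Monoamine, acetylcholine and peptide receptors gave 9 higher and 4 lower of 46 measured (median 0.047). The melanocortin receptor *Mc4r* ranged from 190.2 to 277 in control animals (median 247) and from 318 to 484 in corticosterone-treated animals (median 365). Its groups were apart (by 0.65 ± 0.12, adjusted p = 7.84e-05), and since the ninth hour showed -0.63, its hour difference was 0.79 ± 0.15 (SE, adjusted p = 0.00116). The adenosine receptor *Adora1* (0.19, adjusted p = 1.52e-04) and the neurotensin receptor *Ntsr2* (0.20, adjusted p = 4.77e-05) were higher and the neuropeptide Y receptor *Npy2r* lower (-0.33, adjusted p = 6.18e-04). Amino acid and neurotransmitter transporters gave 6 higher and 6 lower of 30 measured (median -0.0098), with *Slc1a4* (0.46, adjusted p = 1.41e-06) higher and the taurine carrier *Slc6a6* (-0.41, adjusted p = 1.09e-07), the glutamine carrier *Slc38a3* (-0.36, adjusted p = 4.39e-06) and *Slc7a10* (-0.25, adjusted p = 2.33e-06) lower. The lower vesicle genes became 3 without array 4, 6 or 7, and the higher transporters 3 without array 6.

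Neuropeptides gave 1 higher and 3 lower of 27 measured (median -0.0040): *Nmb* was higher (0.22, adjusted p = 0.00307) and *Grp* (-0.42, adjusted p = 0.0381), *Adcyap1* (-0.40, adjusted p = 0.0303) and *Scg2* (-0.20, adjusted p = 0.00156) lower. The call of *Grp* was lost without any one of arrays 2, 4, 5, 6 and 7 (-0.43 to -0.34, highest adjusted p = 0.131) and with Aquantile (-0.40, adjusted p = 0.0526), and that of *Adcyap1* without any one of arrays 2, 4, 5, 7 and 8 (-0.40 to -0.31, highest adjusted p = 0.118) and with the array as replicate block (adjusted p = 0.0677), in a fit of the 8 first-hour arrays alone (adjusted p = 0.0598) and in the deposited log2 ratios (adjusted p = 0.0558); *Scg2* was 0.044, -0.16 and -0.40 within slides 1, 2 and 3. Activity-regulated immediate early genes gave 6 higher and 4 lower of 32 measured (median 0.029). The small GTPase *Arl4d* ranged from 157 to 283 in control animals (median 202) and from 332 to 618 in corticosterone-treated animals (median 403), groups apart (by 1.03 ± 0.090, hour difference 0.81); *Trib1* (0.65, adjusted p = 2.22e-10) and *Junb* (0.38, adjusted p = 2.63e-04) were higher and *Ier5* lower (-0.29, adjusted p = 0.00142). Without array 8, 3 neuropeptides were higher, and without array 3, 2 immediate early genes were lower.

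Of markers of principal neurons, shares near or above the 24.4% of all genes called in either direction were called, with 3 of 12 for dentate granule cells, 3 of 11 for CA1 and 6 of 12 for CA2 and CA3 pyramidal cells. Dentate granule cell markers gave 2 higher and 1 lower of 12 measured (median -0.0027): *Pdzd2* ranged from 862 to 1141 in control animals (median 1058) and from 1407 to 1921 in corticosterone-treated animals (median 1566), groups apart (by 0.64 ± 0.076), *Dsp* was higher (0.33, adjusted p = 0.0316), a call lost without any one of arrays 2, 4, 5, 6 and 7 (0.27 to 0.33, highest adjusted p = 0.118), and *Stxbp6* lower (-0.20, adjusted p = 0.00201). CA1 pyramidal cell markers gave 2 higher and 1 lower of 11 measured (median -0.0049), with *Lefty1* (0.44, adjusted p = 4.53e-06) and *Gpr161* (0.30, adjusted p = 1.86e-05) higher and *Man1a* lower (-0.21, adjusted p = 0.0399), a call lost without any one of arrays 1, 3, 4, 5, 6 and 7 (-0.22 to -0.18, highest adjusted p = 0.126), with Aquantile (adjusted p = 0.0714) and with offset 0 for p (adjusted p = 0.0529). CA2 and CA3 pyramidal cell markers gave 4 higher and 2 lower of 12 measured (median 0.078). *Cacng5* ranged from 372 to 499 in control animals (median 418) and from 551 to 695 in corticosterone-treated animals (median 618), without overlap, by 0.55 ± 0.081 (adjusted p = 1.20e-06); *Amigo2* (0.44, adjusted p = 0.00296) and *Elavl4* (0.26, adjusted p = 0.00990) were higher and *St18* lower (-0.17, adjusted p = 0.0174), with calls lost without array 1 (0.20, adjusted p = 0.0588) for *Elavl4* and without any one of arrays 1, 6 and 7 (-0.16 to -0.15, highest adjusted p = 0.0657) for *St18*. *St18* was also not called with Aquantile (adjusted p = 0.0512), without normalization between arrays (adjusted p = 0.0549), from processed signals (adjusted p = 0.0522) or in the deposited log2 ratios (adjusted p = 0.0544). No interneuron marker was called of 17, the brightest being *Sst*, at 0.052 (adjusted p = 0.501), and *Lhx6*, at 0.12 (adjusted p = 0.329); without adjustment 5 of the 17 had a p under 0.05. Markers of immature neurons and dividing cells gave 1 higher and 4 lower of 19 measured (median -0.017): doublecortin, *Dcx*, of young neurons (-0.23, adjusted p = 2.49e-04), and the stem cell gene *Hopx* (-0.35, adjusted p = 1.25e-04) were lower and *Pcna* higher (0.22, adjusted p = 0.0102). Array 1 decided 2 of the 4 higher CA2 and CA3 markers, and without array 8, 3 interneuron markers were called higher.

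Developmental signalling and matrix genes gave single large effects within lists near the background. Notch and Wnt pathway genes gave 6 higher and 8 lower of 45 measured (median -0.020). *Hes5*, the Notch target of astrocytes and stem cells, ranged from 4622 to 6956 in control animals (median 5833) and from 2846 to 5213 in corticosterone-treated animals (median 3578). The groups overlapped slightly, log2 fold change -0.66 ± 0.093 (adjusted p = 4.22e-07), and with 0.081 and 0.21 at the later hours its hour difference was -0.81 ± 0.11 (SE, adjusted p = 5.62e-06). *Fzd2*, a Wnt receptor, rose by 0.61 ± 0.10 (hour difference 0.58, adjusted p = 0.00686), the Notch-modifying enzyme *Lfng* was higher (0.50, adjusted p = 5.41e-06) and the Wnt inhibitor *Apcdd1* lower (-0.32, adjusted p = 1.77e-04). Growth factors and receptors gave 7 higher and 8 lower of 55 measured (median 0.042); *Fgfrl1*, a receptor without kinase domain, ranged from 1888 to 2305 in control animals (median 2082) and from 1127 to 1806 in corticosterone-treated animals (median 1169), groups apart, fell by 0.71 ± 0.066 and had an hour difference of -0.66 ± 0.081 (SE, adjusted p = 1.41e-07). *Ptn* was lower (-0.41, adjusted p = 2.51e-05) and *Fgf1* higher (0.31, adjusted p = 3.17e-06). Matrix, collagen and metalloproteinase genes gave 11 higher and 6 lower of 58 measured (median -0.0071): the inhibitor of metalloproteinases *Timp4* ranged from 1785 to 2177 in control animals (median 1943) and from 3256 to 4287 in corticosterone-treated animals (median 3698), groups apart (by 0.93 ± 0.053, 0.78 at the ninth hour), the syndecan *Sdc4* rose by 0.94 ± 0.093, *Col5a3* by 0.80 ± 0.13 and the laminin *Lamb1* by 0.28 ± 0.046. Without array 6, 5 Notch and Wnt genes were lower, and without array 8, 11 growth factor genes were higher.

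The hour difference, in which a constant dye effect cancels, set the first hour against the later ones. The paper reports that blood corticosterone of treated mice was back at baseline by the fifth hour and below that of controls in the ninth. Effects at the later hours thus enter each difference, which is not a trait of the first hour alone. Of those the paper does not name, the 8 higher with the smallest p included *Tsc22d3*, *Ramp2*, *Mfsd2a* and *Cmtm3*, given above, and 4 others. *Gpt2*, mitochondrial alanine transaminase, ranged from 1269 to 1504 in control animals (median 1429) and from 1731 to 2251 in corticosterone-treated animals (median 2154) at the first hour, groups apart, with effects of 0.55 at the first, 0.36 at the fifth and -0.090 at the ninth hour and a difference of 0.41 ± 0.065 (SE, adjusted p = 2.73e-05). *Lrrc8c*, a subunit of volume-regulated anion channels, ranged from 199.6 to 232 in control animals (median 229) and from 237 to 387 in corticosterone-treated animals (median 314), groups apart, with 0.49 at the first, 0.077 at the fifth and -0.12 at the ninth hour and a difference of 0.51 ± 0.080 (SE, adjusted p = 4.94e-05). The pseudokinase *Trib1* had a difference of 0.50 ± 0.084 (SE, adjusted p = 7.48e-05). In the helicase *Dhx33* the first-hour rise was small and the ninth hour lower (0.23 at the first, 0.065 at the fifth and -0.57 at the ninth hour), a difference of 0.48 ± 0.078 (SE, adjusted p = 7.37e-05).

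The 8 lower ones included *Cldn5* and 7 others. *Meox1*, a homeobox factor, ranged from 161 to 207 in control animals (median 183) and from 114 to 161 in corticosterone-treated animals (median 146) at the first hour, groups apart, with effects of -0.39 at the first, 0.073 at the fifth and 0.44 at the ninth hour (difference -0.65 ± 0.10, adjusted p = 3.13e-05). *Cdc42ep1*, an effector of the GTPase CDC42, ranged from 1680.05 to 2382 in control animals (median 1773) and from 1099.8 to 1618 in corticosterone-treated animals (median 1276), groups apart, with -0.50 at the first, -0.031 at the fifth and 0.20 at the ninth hour (difference -0.58 ± 0.10, adjusted p = 1.03e-04). *Npas3*, a bHLH-PAS factor, had -0.57 at the first, -0.21 at the fifth and -0.020 at the ninth hour (difference -0.45 ± 0.089, adjusted p = 0.00243). In the others the effects at the later hours lay above that of the first hour, which was called for *Micall2* and *Zfp36l2* and not for *Etv4* and *Gpr84*. The ETS factor *Etv4* had -0.12 at the first, 0.24 at the fifth and 0.39 at the ninth hour (first hour adjusted p = 0.142, difference -0.44 ± 0.072, adjusted p = 1.27e-04), and the microglial fatty acid receptor *Gpr84* -0.19 at the first, 0.32 at the fifth and 0.51 at the ninth hour (first hour adjusted p = 0.183, difference -0.60 ± 0.12, adjusted p = 0.00266). The scaffold *Micall2* had -0.33 at the first, 0.019 at the fifth and 0.26 at the ninth hour (difference -0.47 ± 0.088, adjusted p = 0.00266), and the RNA-binding protein *Zfp36l2* -0.17 at the first, 0.18 at the fifth and 0.27 at the ninth hour (difference -0.40 ± 0.074, adjusted p = 7.95e-04), its first-hour call being lost without any one of arrays 1, 2, 4, 7 and 8 (-0.17 to -0.15, highest adjusted p = 0.0830), without normalization between arrays (adjusted p = 0.0786) and in the deposited log2 ratios (adjusted p = 0.0757). The first-hour arrays enter both quantities, so the 2 are given side by side and not as support for each other.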

How the data were processed

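Hippocampal RNA of control and corticosterone-treated mice was hybridized to 2-color Agilent arrays (1 animal of each group per array), which the authors scanned and deposited as raw intensity values of each spot and its background, with the flags of the scanner software (deposited yes or no codes, another kind of value) and processed intensity. The authors also deposited log2 ratios per probe, red over green, made with normexp and loess; their array medians lay between 0.0049 and 0.0081, their centring is not stated, and they differed from loess-only log ratios computed here by a median of 0.0012.

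Following the study's design, median intensities were background-corrected (limma 3.58.1, normexp, offset 50 for p and 0 for log2 fold changes), normalized by loess within and by quantile between arrays, with control and outlier spots at weight 0 and outlier spots then left out (77 probes lacked a value on an array), and copies of a probe were averaged. Separate channels of all 24 arrays were fitted in 6 groups (statmod 1.5.0, R 4.3.3, data.table version 1.17.8, jsonlite 2.0.0; intraspot correlation 0.279), and p-values of the 2-sided test were adjusted by Benjamini and Hochberg over 56605 probes, with adjusted p under 0.05 as the call. For the hour difference the mean effect at the fifth and ninth hour was subtracted. Of the probes, 34566 had a gene name, and 1317 of 1325 listed genes were on the array.

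Gene lists covered 28 pathways and 15 cell types and received no test of their own. Members and lists were chosen with earlier results of these data known. Genes were named by rule: the 15 largest rises and 15 largest falls in the same direction on all 8 arrays at an intensity of 50 or more, above background on at least 1 array in both groups, and the 8 genes in each direction with the smallest p in the hour difference, leaving out 176 genes that the paper names, then up to 4 members of each list with the smallest p, or the 2 brightest where under 2 passed. *Map3k6*, *Sgk1* and *Hif3a* are exceptions, as are the genes given as not called or lowest and highest in a list. A few genes that the rule names are not reported here.

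In simulated data of 56528 probes with 200 changed, the first-hour test called 66% of log2 changes of 0.25 and 98% of those of 0.5, with 13 false calls, and the hour difference 50% and 96%, with 12. The noise was independent between probes and of equal size on every array. In the real data 17.5% of probes were called at the first hour and array 8 had a wider spread. The simulated rates hold for their own setting only and are not the error rates of the reported tests. Control siblings shared litters with treated animals. Array titles name the mice of each array, but no label says whether these were brothers. An array pairs 1 animal of each group in hybridization, which the intraspot correlation takes up. The p-values rest on a variance per probe pooled over the arrays of all hours, which limma moderated across probes. They do not measure the spread of the 8 first-hour animals per group alone. A fit of the 8 first-hour arrays alone called 3691 genes and shared 3268 of the 3764 called genes (86.8%). The number of arrays limits the precision. Alternatives were the offset, background, normalization, filters on dim probes, outlier spots, slide, variance trend, deposited log2 ratios, processed intensity, log ratios, first-hour arrays alone, each slide or array left out and every probe of a gene; leaving out single arrays for the gene lists was added after the data were seen.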

Additional observations from a re-analysis of the deposited data

Results flagged for a closer look

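In each group of 8 first-hour animals, each named gene was searched for a sample set apart from the others, by its gap to the nearest other sample as a share of the range of the group (limit 0.526, or 0.568 where 7 samples had a value). Of 384 groups of animals tested, 33 held such a sample, where chance gives about 1 group in 20 (5%). Array 8, which stood apart in the spread of its ratios, held 23 of the 33.

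Among control animals, a sample lay above the rest for *Cd93* 0.554, *Gbp3* 0.608, *Gpr37* 0.546, *Ifit3b* 0.573, *Islr* 0.572, *Oas1a* 0.699, *Scn3b* 0.58 and *Sv2a* 0.559, and below the rest for *Hopx* 0.599 and *Neu4* 0.596. Among corticosterone-treated animals, a sample lay above the rest for *Ahsa1* 0.559, *Cacng2* 0.615, *Dnajb9* 0.658, *Fgf1* 0.61, *Gabrb2* 0.559, *Idi1* 0.561, *Npas3* 0.626, *Pdk4* 0.53, *Phgdh* 0.576, *Pmaip1* 0.546, *Rela* 0.593, *Sdc4* 0.564, *Sdhd* 0.59, *Slc2a4* 0.615 and *Slitrk6* 0.566, and below the rest for *Arntl* 0.571, *Bsn* 0.666, *Kcnk2* 0.535, *Pdk2* 0.751, *Pltp* 0.622, *Rgs5* 0.567, *Scg2* 0.705 and *Uqcrc1* 0.548. All of these are shares of the range of the group.

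A difference between hours was tested as the first-hour effect minus the mean of the fifth- and ninth-hour effects. Among genes that the paper does not name, the 8 higher with the smallest p had differences (log2) of *Cmtm3* 0.70, *Dhx33* 0.48, *Gpt2* 0.41, *Lrrc8c* 0.51, *Mfsd2a* 0.62, *Ramp2* 0.38, *Trib1* 0.50 and *Tsc22d3* 1.12. The 8 lower had differences of *Cdc42ep1* -0.58, *Cldn5* -0.43, *Etv4* -0.44, *Gpr84* -0.60, *Meox1* -0.65, *Micall2* -0.47, *Npas3* -0.45 and *Zfp36l2* -0.40. Each of the 16 kept its direction and call without any 1 of the first-hour arrays.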

How the results depend on the processing

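Called genes numbered 1902 higher and 1862 lower at the first hour, and 131 and 39 in the hour difference. No called value of a named gene's brightest probe changed sign under the alternatives run, but the other probe of *Atf4* was called in the opposite direction. Without slide 2, 1043 genes were higher and 763 lower, and 1744 of the 3764 called genes (46.3%) were shared; without slide 3 there were 1247 and 1208. Without slides 1, 2 and 3 the hour difference gave 63, 69 and 23 higher and 9, 15 and 10 lower, and with offset 0 for p 24 lower. Interferon genes lower were 5, 2 and 1 without slides 1, 2 and 3 (10 in the main fit). Glutamate and GABA receptor subunits lower were 5 and 6 without slides 2 and 3 and 21 over every probe of the members (12 in the main fit). Microglia markers lower were 3 without slide 2 (8 in the main fit). Fewer arrays were fitted without a slide, and more probes were counted over every probe; for the offset the cause was not tested.

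Leaving out 1 first-hour array at a time gave 1560 to 2070 genes higher and 1418 to 2049 lower, 99 to 144 and 19 to 40 in the hour difference, 28 to 30 receptor targets higher, and 3 to 8 interferon genes, 5 to 11 glutamate and GABA receptor subunits, 12 oligodendrocyte and 7 to 9 microglia markers lower. With the array as a replicate block, log ratios of the 8 arrays gave 1824 higher and 1806 lower, and those of 24 arrays 141 and 37 in the hour difference. The deposited log2 ratios gave 2547 and 1901 (142 and 40 in the hour difference), Aquantile 2265 and 1695, no normalization between arrays 2239 and 1495, and processed signals 2097 and 2031.

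Of the values of named genes under the alternatives, 4826 kept direction and side of the threshold at the first hour and 166 lost the call, in 49 genes; in the hour difference 371 kept both and 13 lost the call, in 10 genes, all of them without a slide. Of 731 list medians, 730 moved by less than the spread between arrays, and that of glutamate and GABA receptor subunits moved to -0.050 over every probe. That spread, the standard deviation of the array medians, was wider than the median itself in some lists. It was 0.33 for interferon genes (median -0.25) and 0.11 for microglia (median -0.057). A median could thus reach 0 and still count as unmoved, so the count does not show that the medians were stable. Whether dim probes near an intensity of 50 limited what could be called was not tested.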
